A study of Mus musculus with 16 samples.

Results

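Distal intergenic peaks of histone H3 acetylated at lysine 27 (H3K27Ac) were examined in adult cardiomyocytes with and without desmin. They were chosen from 4 H3K27Ac peak lists as peaks annotated Distal Intergenic, lying over 10000 bp from the nearest annotated transcription start, under 2500 bp wide and with an input height under 10 reads. Of 53959 H3K27Ac peaks in the 4 lists, 3994 met the rule. The Des+/+ basal list held 1239 of 15757 peaks (7.86%), the Des-/- basal list 1305 of 16638 (7.84%), the Des+/+ swim list 776 of 11157 (6.96%) and the Des-/- swim list 674 of 10407 (6.48%). The 95% Wilson intervals of these shares were 7.45 to 8.29, 7.44 to 8.26, 6.5 to 7.44 and 6.02 to 6.97%, and they cover counting error only. Where 4 values follow each other below, they stand in this order of the lists.

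The cells were cardiomyocytes freshly isolated by enzymatic perfusion of the hearts of 3-month-old mice. Des+/+ mice have desmin, the intermediate filament protein of muscle that ties the contractile apparatus to organelles and the nucleus, and Des-/- mice lack it. Each genotype was studied without exercise (basal) and after swimming exercise (swim). Each of the 4 groups had 1 H3K27Ac library, prepared by the study's methods from the chromatin of several mice. With a single library a group, replicate error is unknown, and no difference below has a replicate check or a p-value.

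H3K27Ac is laid down by the acetyltransferases p300 and CBP and marks active promoters and active enhancers. Enhancers are stretches of DNA, near a gene's start or far from it, that bind transcription factors and raise transcription. In heart muscle those factors include GATA4, MEF2, TBX5, NKX2-5, SRF and TEAD proteins. A peak of this mark far from any start is usually read as a candidate enhancer, and the nearest gene is an assignment by distance, not a proven target.

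The sequences at the centres of 6 such regions are shown, 4 because the mark was high or present in every list and 2 because they lie beside stress genes whose regions are described further on. Each is 300 bases of the plus strand of GRCm38, read 5′ to 3′, with matches to any of 12 motifs in capitals. The B4galnt4 window is chr7:141048317-141048616 and holds matches for TEAD, T-box and NKX2-5 factors. The Zfp239 window is chr6:117879629-117879928, with an AP-1 match. The Ywhaz window is chr15:36716230-36716529, with a MEF2 match. The Kcnh2 window is chr5:24266384-24266683, with an AP-1 and an NKX2-5 match. The Fos window is chr12:85455387-85455686, with an E-box and an SP/KLF match. The Nppb window is chr4:147963222-147963521, with an NKX2-5, an AP-1 and an E-box match.
B4galnt4 region: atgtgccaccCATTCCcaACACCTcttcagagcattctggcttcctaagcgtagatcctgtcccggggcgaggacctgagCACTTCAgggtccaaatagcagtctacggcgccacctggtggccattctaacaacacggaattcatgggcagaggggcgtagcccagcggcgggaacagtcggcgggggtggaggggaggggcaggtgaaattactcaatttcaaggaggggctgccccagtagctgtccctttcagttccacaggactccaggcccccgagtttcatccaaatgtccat
Zfp239 region: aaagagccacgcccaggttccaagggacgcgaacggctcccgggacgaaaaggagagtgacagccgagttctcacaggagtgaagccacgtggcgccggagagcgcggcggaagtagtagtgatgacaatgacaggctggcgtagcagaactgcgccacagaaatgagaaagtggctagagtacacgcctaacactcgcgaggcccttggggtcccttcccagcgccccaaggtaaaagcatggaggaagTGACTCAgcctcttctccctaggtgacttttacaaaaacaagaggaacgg
Ywhaz region: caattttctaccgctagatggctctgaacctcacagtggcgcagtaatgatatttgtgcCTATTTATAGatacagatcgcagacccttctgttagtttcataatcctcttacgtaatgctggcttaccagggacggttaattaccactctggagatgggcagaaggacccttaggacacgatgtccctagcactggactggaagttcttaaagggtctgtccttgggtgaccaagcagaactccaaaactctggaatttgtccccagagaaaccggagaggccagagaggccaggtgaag
Kcnh2 region: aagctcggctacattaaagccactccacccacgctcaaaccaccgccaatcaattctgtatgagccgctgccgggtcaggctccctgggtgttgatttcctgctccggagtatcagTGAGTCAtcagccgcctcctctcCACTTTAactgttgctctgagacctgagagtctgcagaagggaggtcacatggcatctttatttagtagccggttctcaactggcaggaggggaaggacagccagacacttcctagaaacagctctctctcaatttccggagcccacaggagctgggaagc
Fos region: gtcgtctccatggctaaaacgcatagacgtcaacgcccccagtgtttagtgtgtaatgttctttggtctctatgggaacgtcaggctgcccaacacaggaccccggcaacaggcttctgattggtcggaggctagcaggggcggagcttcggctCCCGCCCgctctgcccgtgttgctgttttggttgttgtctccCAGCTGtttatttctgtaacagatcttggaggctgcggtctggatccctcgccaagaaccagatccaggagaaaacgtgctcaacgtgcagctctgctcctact
Nppb region: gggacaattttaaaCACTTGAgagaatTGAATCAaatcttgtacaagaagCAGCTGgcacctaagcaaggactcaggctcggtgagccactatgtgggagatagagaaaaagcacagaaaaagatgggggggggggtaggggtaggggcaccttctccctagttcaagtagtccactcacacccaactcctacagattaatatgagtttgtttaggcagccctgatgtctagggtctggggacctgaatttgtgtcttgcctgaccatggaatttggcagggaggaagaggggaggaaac

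The peaks were of modest height. Height is the number of overlapping reads at a peak as the authors deposited it, and no list held a peak under 15 reads. Median heights were 19, 18, 18 and 19 reads, and the highest peaks reached 101, 101, 61 and 68 reads. Promoter peaks held to the same limits on width and input had medians of 25, 27, 22 and 24 reads, and intronic peaks held to all 3 limits had medians of 18, 17, 17 and 18 reads. Between 40.7 and 44.8% of the distal intergenic peaks had 15 to 17 reads, near the floor of the lists. Heights of 41 reads or more were found in 5.0, 4.06, 3.09 and 3.56% of the peaks in the same order, against 20.9, 23.7, 11.0 and 13.1% of promoter peaks. Median input heights were 2, 2, 2 and 3 reads and median widths 758, 739, 724 and 709 bp.

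**Figure D1:**
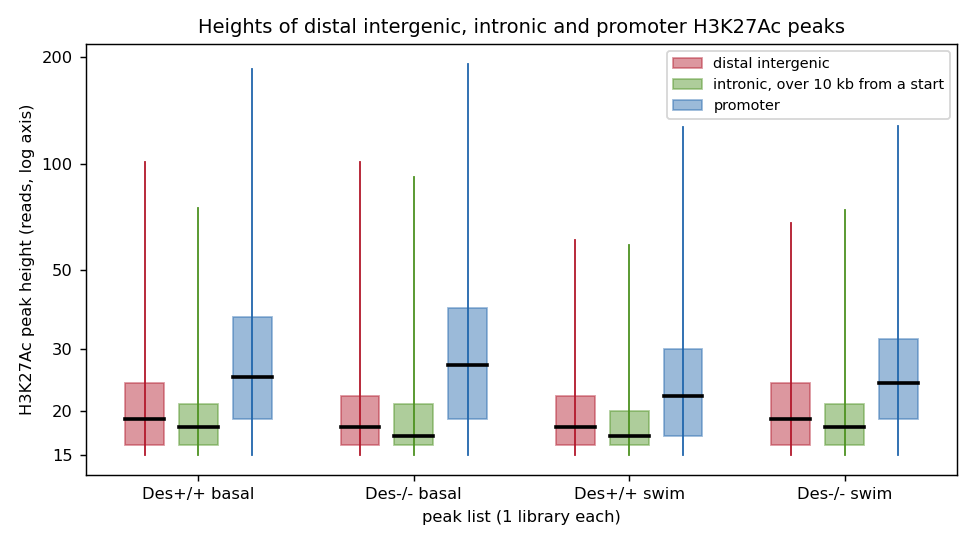
Height of H3K27Ac peaks in reads (log axis) in each of the 4 lists for distal intergenic, intronic and promoter peaks; boxes span the quartiles, black bars are medians and lines run from the lowest to the highest peak. Distal intergenic medians of 18 to 19 reads lie under the promoter medians of 22 to 27 reads in every list.

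The peaks nearest to the limits on each side were as follows. In Des+/+ basal the nearest peak inside the distance limit lay 10016 bp from Pdlim3, with 41 reads, and the nearest outside it 9987 bp from Ndufv1, with 15 reads. In Des-/- swim those were 10003 bp from Gm10354, with 17 reads, and 9918 bp from Smchd1, with 25 reads. The widest peak kept in Des+/+ basal was 2498 bp wide near Gm45924, with 21 reads, and the narrowest one dropped for width was 2523 bp wide near Btg2, with 72 reads. The limit on input dropped 11, 16, 4 and 20 peaks in the 4 lists.

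The regions were far from coding starts, though not always from non-coding ones. By the GENCODE vM21 annotation, 14, 20, 8 and 6 peaks (1.13, 1.53, 1.03 and 0.89%) lay within 10 kb of the start of a protein-coding gene. When starts of every gene type were counted, 330, 341, 217 and 186 peaks (26.6, 26.1, 28.0 and 27.6%) lay within 10 kb, and 43, 40, 27 and 26 within 1 kb, of which 26, 25, 14 and 16 were nearest to a lincRNA. These were kept, since the rule used the deposited annotation. Median distances to the nearest deposited start were 34.4, 34.0, 32.9 and 33.3 kb. Upstream of that start lay 57.2, 58.2, 58.8 and 59.2% of the peaks. The rule itself can favour this side, since an intergenic peak downstream of a start has to lie past the gene. No background share was taken. Peaks over 100 kb away made up 15.2, 13.0, 13.4 and 13.4%. Neighbours were common, with 41.3, 36.9, 39.3 and 42.4% of the peaks having another such peak within 5 kb.

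Ranked by the lowest height over the lists, the first region with a member in all 4 lay 15.6 kb from Zfp239, a zinc finger gene, at chr6:117878627-117880850. Its heights were 89, 85, 61 and 61 reads. The region 12.1 kb from B4galnt4, at chr7:141047901-141049027, had 101, 82, 51 and 55 reads. Both were higher in the basal lists than in either swim list, which was the general order. Over all shared peaks the median ratio of swim to basal height was 0.75 in Des+/+ and 0.767 in Des-/-. A region 18.2 kb from Lncppara, at chr15:85634630-85635492, had 55, 64, 48 and 49 reads, and one 75.4 kb from Ywhaz, which encodes the 14-3-3 zeta adaptor protein, had 48, 59, 43 and 44 reads at chr15:36715569-36717059. The region 52.5 kb from 2900041M22Rik had 62, 66, 58 and 47 reads. Near Mbd2, a gene for a methyl-CpG binding protein, heights were 67, 52, 40 and 40 reads.

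Some of the tallest acetylated stretches were members in only part of the lists because of the limits. Near Rps6ka1, a ribosomal S6 kinase gene, heights were 75, 101, 61 and 56 reads, but the Des-/- swim peak had an input height of 14 reads and fell outside the limit. Near Ccnl1, a cyclin gene, heights were 84, 97, 61 and 68 reads, and the Des+/+ basal peak was 2568 bp wide. Near Chd7, a chromatin remodeller, heights were 76, 85, 56 and 53 reads, with inputs of 10 and 14 reads outside the limit in Des+/+ basal and Des-/- swim. Near Chit1 the heights were 81, 86, 57 and 62 reads, and the Des-/- basal peak was annotated to an exon. At each of these sites a peak was present in all 4 lists. By GENCODE, a start of some gene type lay 0.123 kb from the Chit1 region and 1.14 kb from the Rps6ka1 region. For Ccnl1 and Chd7 the nearest such start was 3.56 and 25.8 kb away.

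Regions were then compared across lists. Members that overlapped by at least 1 bp were merged into 1811 regions. Of these, 291 (16.1%) held a member in all 4 lists, 298 in 3, 357 in 2 and 865 (47.8%) in 1. The median height of the highest peak was 29 reads for regions in 4 lists, 22 for 3, 19 for 2 and 16 for 1, and median widths were 1678, 1200, 864 and 511 bp. Regions with a member in both basal lists and no swim list numbered 203, while 20 had members in both swim lists only. These counts follow the limits of the rule. When any peak was counted, 375 regions had one in all 4 lists, 218 in both basal lists only and 6 in both swim lists only. Regions with a member in a single list numbered 323, 366, 89 and 87.

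**Figure D2:**
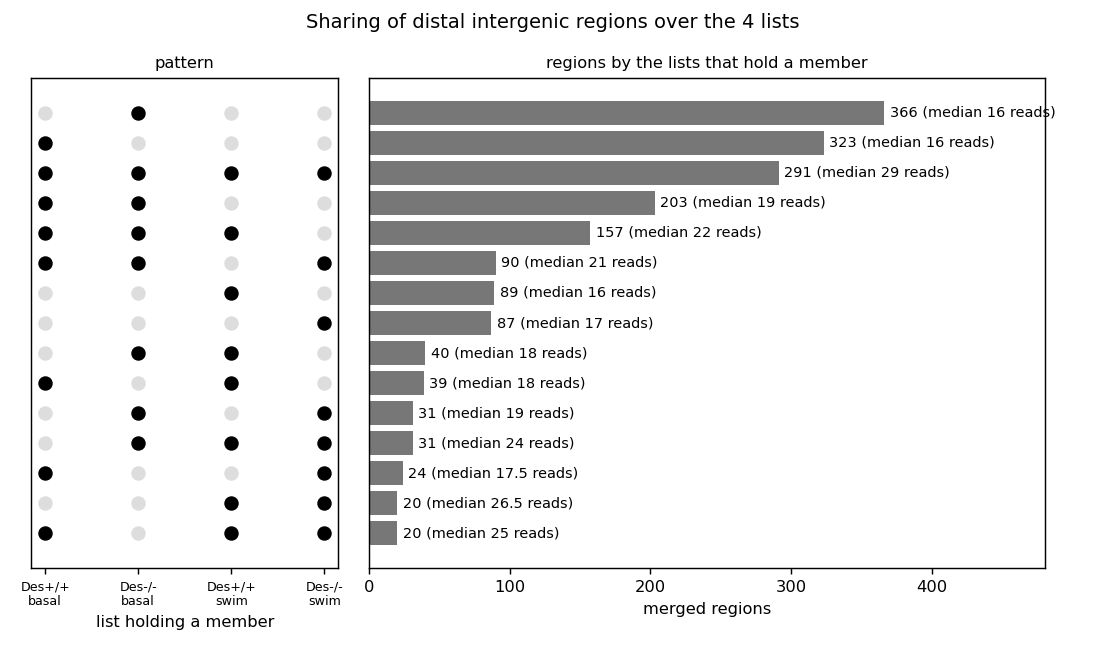
Number of merged distal intergenic regions (bars) for each combination of lists that hold a member (filled dots), with the median of each region's highest peak in reads. Regions with a member in 1 basal list only and regions with a member in all 4 lists are the most frequent patterns, and the latter have the highest median, 29 reads.

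Sharing between lists was lower for distal intergenic peaks than for all peaks together, as it was for intronic peaks held to the same limits. A peak is called unshared here if no peak of any annotation in the other list overlaps it by 1 bp. In the basal state 386 of 1239 Des+/+ peaks (31.2%) had no partner in Des-/-, against 14.5% of all Des+/+ basal peaks, and 439 of 1305 Des-/- peaks (33.6%) had none in Des+/+, against 19.7% of all. After swimming 341 of 776 Des+/+ peaks (43.9%) had no partner in Des-/-, against 27% of all, and 241 of 674 Des-/- peaks (35.8%) had none in Des+/+, against 22.2%. Across the conditions, 54.5% of the Des+/+ basal peaks had no partner after swimming, against 39.0% of all, and 61.8% of the Des-/- basal peaks had none, against 44.8%. In the other direction 18.2% of Des+/+ swim and 17.7% of Des-/- swim peaks had no basal partner, against 8.39 and 6.28% of all. The basal lists are longer, and with lists of equal length the shares were 35.9% from basal and 33.1% from swim in Des+/+, and 29.3 and 39.0% in Des-/-, where the order turned. With the full lists, intronic peaks had a higher unshared share than distal intergenic peaks in all 8 ordered pairs. Between genotypes it was 34.8% from Des+/+ and 37.6% from Des-/- in the basal state, and 53.9 and 37.0% after swimming. From basal to swim it was 57.4% in Des+/+ and 68.1% in Des-/-, and from swim to basal 24.9 and 19.8%.

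Height differs between the classes, so the shares were also taken within bins of equal height, and there the contrast with promoter peaks depended on which list was the starting point. From Des+/+ basal, 52.1% of the distal intergenic peaks of 15 to 17 reads (interval 47.7 to 56.4) and 27.1% of the promoter peaks (25.1 to 29.3) had no partner in Des-/- basal, and at 21 to 25 reads the shares were 13.4% (9.43 to 18.7) and 3.28% (2.56 to 4.2). From Des-/- basal the gap was narrower, at 54.9% (50.8 to 58.9) and 45.8% (43.4 to 48.1) in the lowest bin and 11.2% (7.53 to 16.4) and 10.4% (9.05 to 11.9) at 21 to 25 reads. After swimming the Des+/+ list gave 64.4% (59.2 to 69.2) and 43.3% (41.1 to 45.5) in the lowest bin. The Des-/- swim list gave 58.4% (52.5 to 64.1) and 52.5% (49.7 to 55.3) there, and at 18 to 20 reads the order turned, with 32.1% (24.8 to 40.4) of distal intergenic and 35.6% (32.7 to 38.5) of promoter peaks. At 26 to 40 reads the Des-/- swim list again had more unshared distal intergenic peaks, 10.4% (6.07 to 17.4) against 3.57% (2.83 to 4.48) of promoter peaks. Intervals in the lowest bin were thus apart from both basal lists and from Des+/+ swim, and overlapped from Des-/- swim.

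Across conditions the starting list mattered too. From Des+/+ basal, 76.6% of the distal intergenic and 78.0% of the promoter peaks of 15 to 17 reads had no partner after swimming, and 42.6 and 40.6% at 21 to 25 reads. Starting from the swim list, 29.6% (25.0 to 34.6) and 9.66% (8.41 to 11.1) in the lowest bin had no basal partner in Des+/+, and 28.8% (23.8 to 34.5) and 11.0% (9.34 to 12.9) had none in Des-/-. Intronic peaks of Des+/+ basal stood at 52.4% in the lowest bin against Des-/- basal, and their intervals overlapped those of the distal intergenic peaks in all 5 bins. Of the 62 distal intergenic peaks of Des+/+ basal with 41 reads or more, 0 lacked a partner in Des-/- basal and 1 lacked one in Des+/+ swim.

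**Figure D3:**
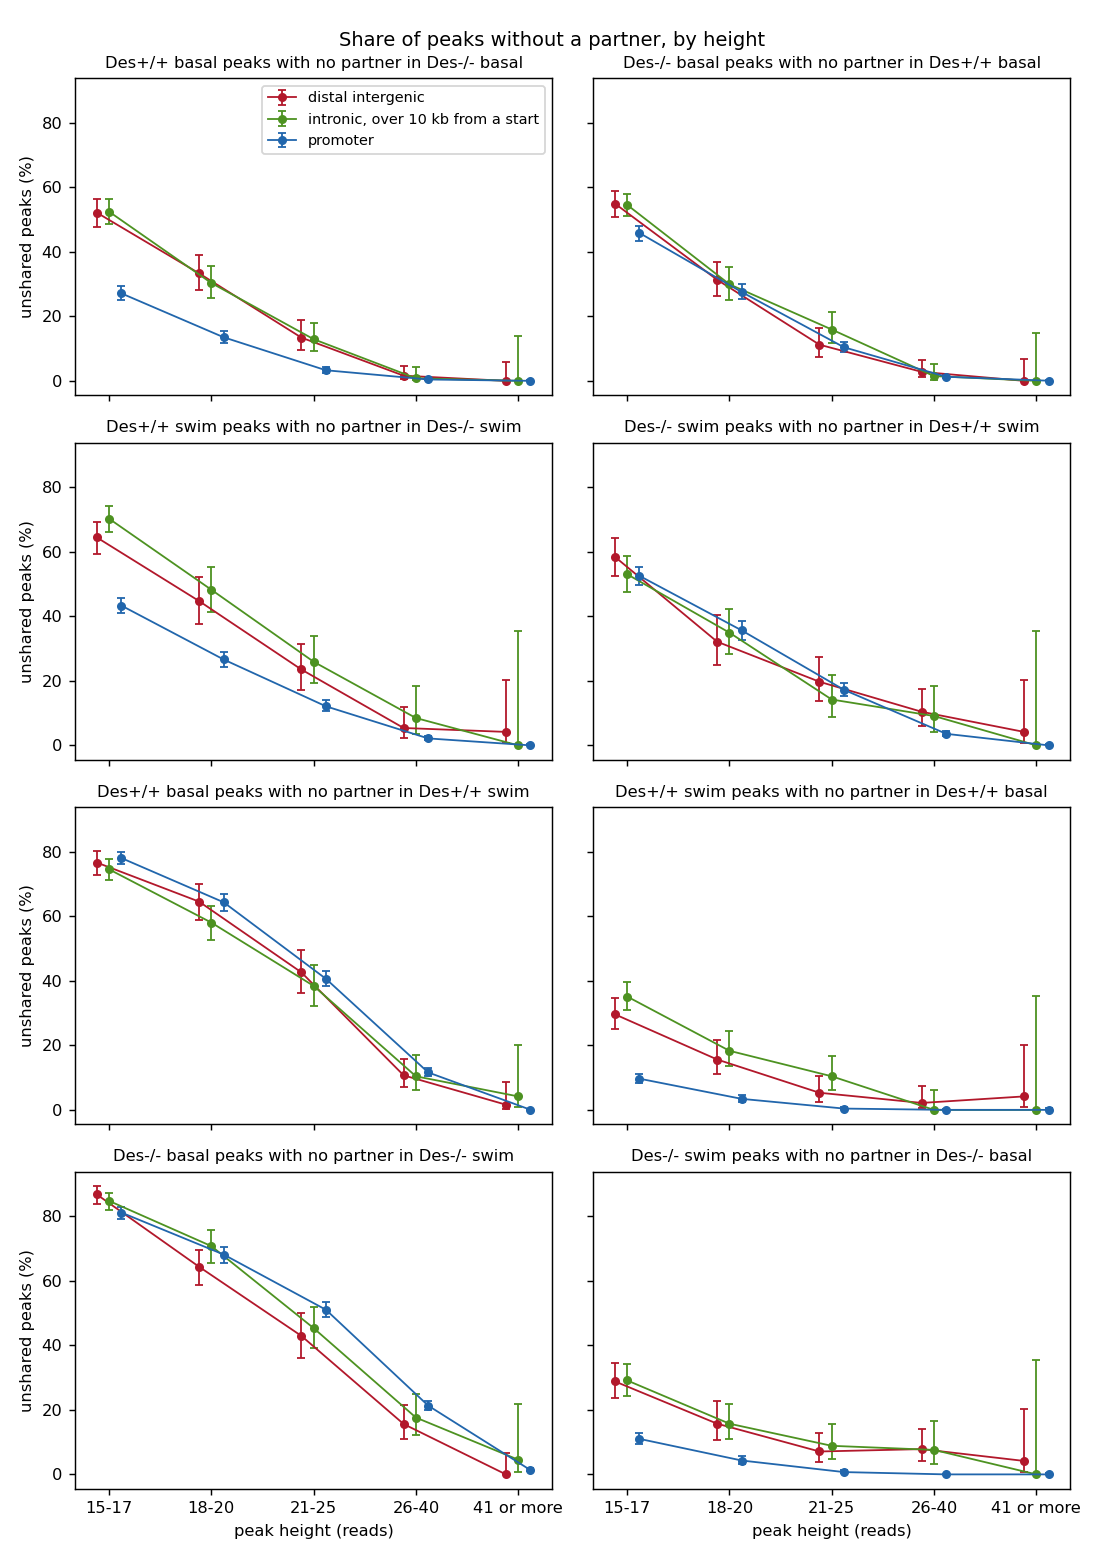
Percent of peaks with no overlapping peak in the second list, by height bin in reads, for distal intergenic, intronic and promoter peaks in all 8 ordered pairs of lists; error bars are 95% Wilson intervals. Promoter peaks lie well below the others from Des+/+ basal to Des-/- basal (27.1% against 52.1% at 15 to 17 reads), while from Des-/- swim to Des+/+ swim the order changes between bins, with 32.1% against 35.6% at 18 to 20 reads and 10.4% against 3.57% at 26 to 40 reads.

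Where a region was shared, its heights were compared after division by the median ratio of all shared peaks, which was 1.07 for Des-/- over Des+/+ in the basal state, 1.12 after swimming, 0.75 for swim over basal in Des+/+ and 0.767 in Des-/-. Relative to these, 31 of 853 shared distal intergenic peaks (3.63%) were over 1.5-fold higher and 59 (6.92%) over 1.5-fold lower in Des-/- basal, where all shared peaks gave 5.91 and 3.47%. After swimming 18 of 435 (4.14%) were higher and 33 (7.59%) lower in Des-/-, where all peaks gave 5.71 and 4.05%. That order turned to 11.0% higher and 7.82% lower when input was subtracted, and to 8.97 and 2.53% without division by the median, which in the basal state also turned it, to 5.39 and 3.28%. From basal to swim 59 of 564 (10.5%) were higher and 16 (2.84%) lower in Des+/+, where all gave 6.6 and 3.68%, and 55 of 499 (11.0%) were higher and 7 (1.4%) lower in Des-/-, where all gave 6.29 and 3.32%. Without the division 1.6% were higher and 19.9% lower in Des+/+, and 2.0 and 14.8% in Des-/-. With it, intronic peaks moved the same way, at 3.9% higher and 6.35% lower in Des-/- basal and 2.21 and 9.83% in Des-/- swim. From basal to swim intronic peaks gave 17.9% higher and 1.87% lower in Des+/+, and 10.1 and 1.71% in Des-/-. The floor of 15 reads limits these ratios, since a low peak with a lower partner is listed as unshared.

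Between genotypes, a 1.5-fold lower partner of a peak of at least 30 reads would still be listed. Among such peaks the direction relative to all peaks was the same whichever list served as reference. The limit of 30 reads was chosen after the data were seen. From the Des+/+ basal side 25 of 156 distal intergenic peaks (16%) were over 1.5-fold lower in Des-/- and 1 was higher, against 4.09% lower among all 4938 peaks of that height, and the median relative ratios were 0.85 and 0.976. Starting from Des-/- basal, 3 of 147 (2.04%) were lower in Des+/+ and 4 higher, against 5.08% lower among all, with medians of 1.01 and 0.93. After swimming 15 of 72 Des+/+ peaks (20.8%) were lower in Des-/- and 0 higher, against 5.9% lower among all, with medians of 0.843 and 0.946. From Des-/- swim, 4 of 74 (5.41%) were lower in Des+/+ and 2 (2.7%) higher, against 7.54% lower and 0.863% higher among all, with medians of 1.01 and 0.921. These last peaks were by themselves more often lower than higher in Des+/+, so the direction there rests on the comparison with all peaks. Relative to all peaks, the tall distal intergenic peaks thus stood lower in the Des-/- library from either reference. With input subtracted this held in the basal state, at 17.9% lower in Des-/- against 5.71% of all and 5.44% lower in Des+/+ against 7.44% of all. After swimming it then held only from the Des+/+ side, at 16.7% against 9.61%, since from Des-/- swim 10.8% were lower in Des+/+ against 10.4% of all. Intronic peaks of this height showed similar shares from the Des+/+ side, with 13 of 81 lower in Des-/- basal and 6 of 23 in Des-/- swim, so the trait was not particular to intergenic peaks there.

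The effect of swimming on the tall peaks was compared in the same way. Here the floor still limited the shares from the basal lists, since the median ratios of swim to basal were 0.75 and 0.767. A basal peak of 30 reads called lower would have a swim partner at or under about 15 reads, which the lists can miss. In Des+/+ they were more often lower than all peaks from either reference, which gives no direction, at 11.0% lower after swimming against 7.39% of all and 12.7% lower in the basal list against 3.64% of all. In Des-/- the share from the basal reference, which the floor limits, was near that of all peaks, and only the swim reference set them apart. From Des-/- basal 7 of 137 (5.11%) were lower after swimming against 5.85% of all, with medians of 0.936 and 0.911. From Des-/- swim 10 of 73 (13.7%) were lower in the basal list against 3.69% of all, with medians of 0.939 and 1.01. Intronic peaks of this height gave 8 of 71 (11.3%) and 4 of 30 (13.3%) in the same order.

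Among the 3 largest ratios each way in each comparison, the highest was 4.07, 53.6 kb from 2900041M22Rik, with 19 reads in Des+/+ basal and 58 in Des+/+ swim. It lay beside a peak of 62 reads in the same region, and the single swim peak spanned both. Near Dct heights were 15 reads in Des+/+ basal and 36 in Des+/+ swim, a relative ratio of 3.2. A peak 20.9 kb from Tcf12, a helix-loop-helix factor gene, had 45 reads in Des-/- basal and 17 in Des-/- swim, a relative ratio of 0.493. One 13.0 kb from Yap1, the effector of the Hippo pathway, had 70 reads in Des-/- basal and 30 in Des-/- swim, a relative ratio of 0.559. Near Slc38a2, an amino acid transporter gene, heights were 34 reads in Des+/+ swim and 17 in Des-/- swim, a relative ratio of 0.444. A peak 25.7 kb from Fgfr3, a growth factor receptor gene, had 30 reads in Des+/+ basal and 17 in Des-/- basal, a relative ratio of 0.528. In the upward direction a peak 11.7 kb from P2ry2, a nucleotide receptor gene, had 15 reads in Des-/- basal and 34 in Des-/- swim, a relative ratio of 2.96. Near Klrb1b the Des+/+ heights were 41 reads before and 16 after swimming, and the Des-/- swim height was 48 reads.

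Several genes carried groups of these peaks. The nearest gene of at least 1 member numbered 760, 846, 513 and 436 in the 4 lists, which was 8.05, 8.49, 7.15 and 6.18% of the genes nearest to any H3K27Ac peak of that list. In all 4 lists together 1094 genes were named and 288 recurred in every list. Genes with 3 or more members numbered 110, 99, 58 and 51 and took 34.1, 29.8, 26.9 and 28.6% of the members. A promoter peak of the same gene was present for 58.7, 59.7, 51.1 and 49.3% of the genes with a member.

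Irf2bpl, which encodes an interferon regulatory factor 2 binding protein, led with 6, 9, 10 and 6 members. They fell in 7 regions spread over 82.4 kb. At chr12:86834020-86837035 the highest member had 37, 43, 35 and 48 reads, beside a Des+/+ basal peak of 52 reads that was 3731 bp wide and no member, and the region at chr12:86823379-86825818 had 39, 37, 42 and 23 reads. S1pr1, the sphingosine-1-phosphate receptor of endothelium and cardiomyocytes, had 8, 8, 6 and 6 members in 11 regions over 141.0 kb. Next came 1700016G22Rik with 4, 8, 4 and 6, and Gm36229 with 4, 7, 3 and 7 members. Pcdh1, a protocadherin gene, had 7, 6, 3 and 4, and Plk2, a polo-like kinase gene, had 7, 6, 4 and 2, the latter in regions 140.0 to 245.0 kb from its start. Around Chaserr, the non-coding RNA gene beside Chd2, a stretch of 3400 bp had heights of 85, 91, 60 and 62 reads, and was called as 1 peak over the width limit in both basal lists and as 2 members in each swim list.

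Genes of the stress response were the most often represented of the lists of heart and other cell type genes. Of the stress and natriuretic peptide genes with any peak, 9 of 22, 9 of 24, 7 of 23 and 5 of 21 were nearest to a member, where all genes gave 8.05, 8.49, 7.15 and 6.18%. Fos, an immediate early AP-1 gene, had 2 regions with a member in every list. The one 17.4 kb away, at chr12:85454527-85456529, had 67, 53, 36 and 53 reads, and the one 10.4 kb away, at chr12:85485205-85487099, had 47, 40, 26 and 32 reads. In both the lowest height was in Des+/+ swim. Ier3, an early response gene, had 47, 39, 29 and 48 reads at a region 12.6 kb away, again lowest in Des+/+ swim. These are heights as deposited. Over all shared peaks the median ratio was 0.75 for swim over basal in Des+/+ and 1.12 for Des-/- over Des+/+ after swimming. Nr4a1, an orphan nuclear receptor gene, had 26, 27, 21 and 15 reads.

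Nppb encodes B-type natriuretic peptide, a hormone released by strained heart muscle. The region 22.1 kb from its start, whose centre is among the sequences printed, had 45, 37, 28 and 17 reads. The order was basal above swim and Des+/+ above Des-/- in each condition, and the swim height was 0.62 of the basal height in Des+/+ and 0.46 in Des-/-, where the median of all shared peaks was 0.75 and 0.767. The Des+/+ basal peak was 2620 bp wide, over the limit, and the Des-/- swim peak was annotated to the neighbouring gene 2510039O18Rik, so both are left out of the counts of members at Nppb, which were 2, 3, 3 and 0. A second region, 16.3 kb away, had 21, 16 and 19 reads in the first 3 lists and no peak in Des-/- swim.

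Contractile and conduction genes were nearest to a member less often than stress genes. Of sarcomere and Z-disc genes with any peak, 4 of 36, 5 of 34, 3 of 30 and 1 of 21 were nearest to a member, and of calcium handling and ion channel genes 5 of 21, 4 of 21, 3 of 18 and 3 of 15. Ankrd1, a strain-responsive titin partner that the stress list also holds, had 21, 15 and 20 reads at a region 48.3 kb away and no peak in Des-/- swim. Near Lmod2, which sets thin filament length, a region 10.0 kb away had 25, 27 and 26 reads and none in Des-/- swim. Ryr2, the calcium release channel of the sarcoplasmic reticulum, had a region of 4084 bp with 26, 25 and 24 reads and no peak in Des-/- swim. The next region had 20, 25, 23 and 16 reads, where the Des-/- basal and Des+/+ swim peaks were not members. Kcnh2, a potassium channel of repolarisation, had 30, 20, 22 and 17 reads at chr5:24265893-24267465. A region 22.3 kb from Atp2a2, the calcium pump gene, had 39, 30, 24 and 18 reads, where the basal peaks were not members. The same basal heights stand at the adjoining region chr5:122525810-122527306. A peak gives its height to every region that it overlaps, so heights of adjoining regions are not independent.

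Of cardiac transcription factor genes with any peak, 5 of 26, 5 of 25, 3 of 22 and 1 of 16 were nearest to a member. Gata6, a cardiac GATA factor gene, had 26, 30 and 22 reads at a region 86.1 kb away and no peak in Des-/- swim, and Irx4, a ventricular homeobox gene, had 25, 16 and 15 reads and none in Des-/- swim. Of energy metabolism genes 5 of 28, 6 of 28, 6 of 28 and 2 of 17 were nearest to a member, or 17.9, 21.4, 21.4 and 11.8%. Cd36, the fatty acid transporter, had 33, 29, 20 and 21 reads 35.6 kb away, and Idh2, a mitochondrial isocitrate dehydrogenase, 24, 30, 25 and 20 reads 15.2 kb away. Pdk4, which restrains pyruvate oxidation, had 16, 16 and 23 reads and no peak in Des-/- swim, and Lpl, lipoprotein lipase, had 18, 17 and 17 reads and none there.

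Des-/- swim was the list most often missing, which also held over all genes. Of the 189 genes with a member in exactly 3 lists, 112 (59.3%) lacked one in Des-/- swim, 57 (30.2%) in Des+/+ swim, 13 in Des+/+ basal and 7 in Des-/- basal. Of the 26 genes named from the lists, 14 had a member in all 4 lists, 9 lacked one in Des-/- swim (Acsl1, Ankrd1, Gata6, Hspb1, Irx4, Lmod2, Lpl, Nppb and Pdk4) and 3 in Des+/+ swim (Irx3, Kdr and Nr4a3). Des-/- swim is the shortest list, and its promoter peaks had a median input height of 6 reads against 3 in the other lists. The part of either in these gaps was not tested.

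**Figure D4:**
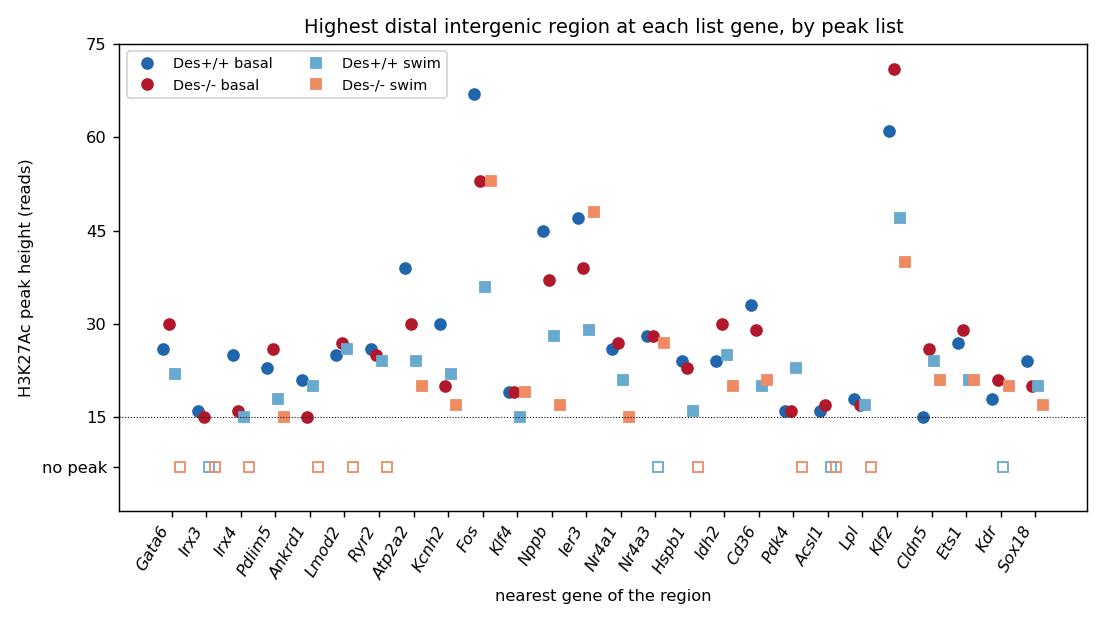
H3K27Ac height in reads of the highest distal intergenic region at each of 26 genes, in the 4 lists; open symbols mean no peak and the dotted line is the floor of 15 reads. Fos, Nppb, Ier3 and Klf2 have the tallest regions, and most of the open symbols belong to Des-/- swim.

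Markers of other cell types were set beside these results. Cardiomyocyte markers had a peak for 9, 9, 8 and 6 of 10 genes, with Nppa lacking one in every list. Endothelial markers had one for 9, 9, 8 and 7 of 10, with summed promoter heights of 328, 256, 173 and 219 reads against 259, 272, 211 and 102 for the cardiomyocyte markers. Fibroblast markers had a peak for 1, 3, 0 and 0 of 7 genes, and mural and leukocyte markers for 0 of 4 each in every list. The longer lists had a peak at 5, 13, 5 and 6 of 30 fibroblast and matrix genes, 5, 5, 5 and 3 of 15 pericyte and smooth muscle genes and 1, 2, 1 and 1 of 25 leukocyte genes. The endothelial list had members at 5 of 28, 5 of 27, 4 of 24 and 5 of 24 genes with a peak. These shares were 17.9, 18.5, 16.7 and 20.8%, against 8.05, 8.49, 7.15 and 6.18% over all genes. Klf2, a flow-responsive endothelial factor, had 61, 71, 47 and 40 reads at a region 22.4 kb away, the first from a peak that was no member. Ets1, an ETS factor gene, had 27, 29, 21 and 21 reads, Cldn5, a claudin of endothelial junctions, 15, 26, 24 and 21, and Sox18, an endothelial factor gene, 24, 20, 20 and 17. The fibroblast list had a member at 1 gene, Col1a1, in Des-/- basal, and the mural and leukocyte lists had none. Fewer cells of a type and less of the mark per cell cannot be told apart in such libraries, and the part of endothelial chromatin in the distal intergenic peaks was not tested.

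In median base composition the regions resembled intronic peaks and not promoters. The median GC content of the 300-base centre window was 49.0, 49.3, 49.3 and 49.3% in the 4 lists, against 47.7 to 48.3% for intronic and 61.7 to 63.7% for promoter peaks. The observed over expected ratio of CpG was 0.252, 0.26, 0.241 and 0.249 against 0.732 to 0.759 at promoters. Windows of at least 55% GC with a CpG ratio of at least 0.65 made up 4.76, 4.77, 4.97 and 3.71% of distal intergenic and 0.989, 0.572, 0.837 and 0.312% of intronic windows. Single tall regions could depart from the medians. The centre windows near Rps6ka1, Chd7 and Ccnl1 had 76.0, 70.3 and 63.3% GC, and the one near Chit1 had 52.3%. Regions with a member in 4 lists had a median GC content of 50.7% and those with a member in 1 list 47.3%.

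Motifs were searched as exact letters on both strands. The letters were AGATAA for GATA factors and GGAATG for TEAD factors. T-box factors were searched as AGGTGT and NKX2-5 as TNAAGTG. Oestrogen related receptors were searched as AAGGTCA and AP-1 as TGANTCA. The E-box was CAGCTG and the ETS motif CCGGAAG. Forkhead factors were searched as TGTTTAC, and SP and KLF factors as GGGCGGG. MEF2 and CArG motifs were searched too, and a base could count for more than 1 motif. In Des+/+ basal the GATA motif was present in 14.0% of distal intergenic, 15.4% of intronic and 5.3% of promoter windows. The TEAD motif was present in 19.5, 19.1 and 11.1%, the NKX2-5 motif in 15, 14.7 and 8.16%, the MEF2 motif in 4.51, 5.32 and 1.35%, and the AP-1 motif in 8.93, 9.51 and 4.52%. In the opposite direction, the SP and KLF motif was present in 7.23, 3.5 and 29.5% and the ETS motif in 3.15, 1.98 and 10.9%. All 32851 RefSeq promoters of the same length gave 11.2% for GATA, 14.7% for TEAD, 11.5% for NKX2-5, 3.19% for MEF2, 7.81% for AP-1 and 25.6% for SP and KLF. Base composition differs between the classes and its part in these shares was not tested.

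Between the lists the motif shares were close. GATA matches were found in 14.0, 13.6, 14.4 and 13.9% of the distal intergenic windows, TEAD matches in 19.5, 19.2, 19.8 and 17.3%, and MEF2 matches in 4.51, 4.69, 4.03 and 3.55%. AP-1 matches were found in 8.93, 11.1, 11.6 and 10.0%, with overlapping Wilson intervals of 7.43 to 10.7% in the lowest and 9.46 to 14.1% in the highest list. The SP and KLF motif was present in 12.5% (9.16 to 16.9) of regions with a member in 4 lists and in 4.69% (3.45 to 6.35) of those with a member in 1.

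**Figure D5:**
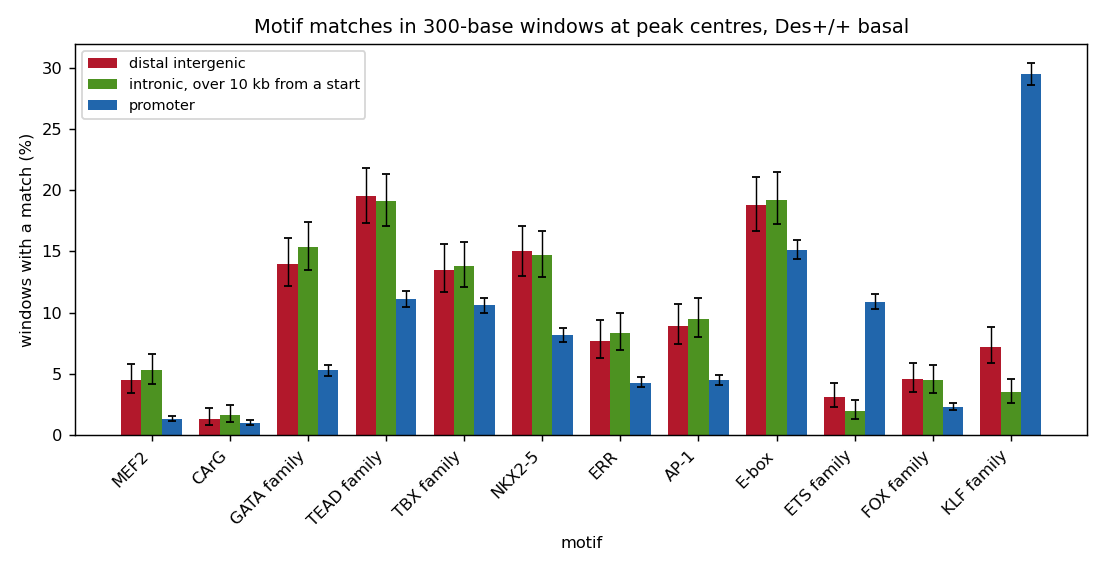
Percent of 300-base centre windows with at least 1 match to each motif in Des+/+ basal, for distal intergenic, intronic and promoter peaks; error bars are 95% Wilson intervals. Distal intergenic and intronic windows lie above promoters for GATA (14.0 and 15.4% against 5.3%) and below them for SP and KLF (29.5%), where intergenic windows at 7.23% also lie above intronic ones at 3.5%.

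The regions seen in a single list differed in repeat content. Soft-masked repeats filled over 50% of the centre window in 7.64% of 301, 11.0% of 336, 13.7% of 73 and 32.5% of 77 regions found in that list alone, against 3.35% of the 358 regions with a peak in every list. Chromosome 18 was left out of these counts. Among regions of at least 20 reads found only in Des-/- swim, 15 of 18 were of this kind, against 6 of 35 in Des+/+ basal, 2 of 22 in Des-/- basal and 2 of 5 in Des+/+ swim. Examples were a peak of 44 reads and 275 bp near 4930515G16Rik and a peak of 28 reads and 247 bp near 3100003L05Rik, both fully masked. In Des+/+ swim the peaks near A930001A20Rik, with 33 reads and 264 bp, and near Il7, with 24 reads and 268 bp, were also fully masked. Reads from repeated sequence can fit several places in the genome, and the part of that in these peaks was not tested. Regions in both Des-/- lists only included Trim25 with 16 and 24 reads, Fgfr4 with 16 and 24 and Errfi1 with 16 and 22 in basal and swim. Mn1 had 32 and 19 reads in the Des+/+ lists only. Masked repeats filled 48.0% of the centre window at Trim25, 11.0% at Fgfr4, 21.7% at Errfi1 and 11.3% at Mn1.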

How the data were processed

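Chromatin immunoprecipitation sequencing for H3K27Ac was read in 4 peak lists, 1 for each genotype and condition, out of 16 samples, of which 4 lamin A/C lists were used only to count overlaps. The authors sequenced about 25 M reads of 100 bp per sample, aligned them to GRCm38 (mm10) with Bowtie2 2.4.4, used SAMtools 1.13, called peaks against the matching input with in-house scripts and annotated them with ChIPseeker 1.36.0. How duplicates were handled and whether input was scaled to depth is not given in the sources used here. The deposited height of a peak and of its input is a coverage signal in whole reads, used here as deposited. The deposited fold is the ratio of height plus 1 to input plus 1, which held for every peak. The distance to the nearest start is a deposited score column in bp, and the width in bp was also deposited. The deposited p-values and false discovery rates were not used.

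Overlap, merging, counts and shares were computed in Python 3.11.15 with pandas 2.3.3, numpy 2.4.6 and scipy 1.17.1, and the overlap step was tested on simulated peaks. Heights of shared peaks were compared with the highest partner and divided by the median ratio of all shared peaks, and a 1.5-fold limit was used. Windows of 300 bases were read from GRCm38.p6, leaving out chromosome 18, and promoters came from RefSeq. Genes and regions were named by rank of height or of number of members and, for 9 gene lists, when nearest to members in at least 3 lists, or the 3 with the highest member where more than 8 qualified. The largest height ratios, Klrb1b included, were added by rank afterwards. The members and lists were chosen with earlier results of these data known. With 1 library per group no test was run, and 95% Wilson intervals cover counting error alone.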

Additional observations from a re-analysis of the deposited data

Results flagged for a closer look

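The difference in the number of distal intergenic peaks between genotypes had opposite signs in the 2 conditions. Des-/- minus Des+/+ was 66 peaks in the basal state and -102 peaks after swimming. With a minimum of 20 reads both signs turned, to -34 and 1. Among the genes with the most members, Irf2bpl differed by 3 in the basal state and by -4 after swimming, and Pcdh1 by -1 and 1. Such counts follow how stretches were split into peaks and the limits of the rule. The 10 Irf2bpl members of Des+/+ swim lay in no more than 7 regions. At chr12:86831570-86833969 the Des+/+ basal peak of 52 reads was no member, while the other lists had members there. These differences were not tested, since each group had 1 library.

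Lamin A/C peaks lay outside the main measurement. In Des-/- basal 4 of 1305 distal intergenic H3K27Ac peaks overlapped a lamin A/C peak of the same group, or 0.307% (0.119 to 0.785), against 0.18% of all H3K27Ac peaks there. The counts were 2 of 776 in Des+/+ swim and 3 of 674 in Des-/- swim. In Des+/+ basal it was 0 of 1239, which allows a share of up to 0.242%, but that group had 188 lamin A/C peaks against 831, 635 and 536 in Des-/- basal, Des+/+ swim and Des-/- swim.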

How the results depend on the processing

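No paired analysis was possible because each group had 1 library. Most values depended on the floor of 15 reads. With a minimum of 20 reads, 527, 493, 304 and 305 peaks met the rule in the order of the report, the difference Des-/- minus Des+/+ turned to -34 in the basal state and 1 after swimming, 124 regions stood in all lists, and 25, 19, 6 and 18 genes had 3 or more members. The unshared shares at 20 reads were 8.54 and 7.3% (Des+/+ and Des-/- basal against each other), 18.1 and 15.7% (the same after swimming), 27.5 and 5.59% (Des+/+ basal and swim against each other) and 29.6 and 8.2% (Des-/-). With a distance over 50 kb the counts were 412, 426, 253 and 230, and the differences 14 and -23.

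A partner required to be a member itself gave 34.1 and 37.2% between genotypes in the basal state, and 26 and 25.5% for swim peaks against basal in Des+/+ and Des-/-. Lists of equal length gave 34.3% for Des+/+ basal against Des-/- basal, 35.9 and 33.1% for Des+/+ basal and swim against each other, and 29.3 and 39.0% in Des-/-, so the asymmetry between conditions depended on list length.

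Without division by the median, 5.39% of shared peaks were higher and 3.28% lower for Des-/- over Des+/+ in the basal state, 8.97 and 2.53% after swimming, 1.6 and 19.9% for swim over basal in Des+/+, and 2.0 and 14.8% for the same in Des-/-. With input subtracted 4.92% were higher and 10.3% lower for Des-/- over Des+/+ in the basal state, 11.0 and 7.82% after swimming, where the order turned, 16.3 and 3.72% for swim over basal in Des+/+, and 19.8 and 3.61% for the same in Des-/-. For reference heights of at least 30 reads, chosen after seeing the data, 0.641 and 16% were higher and lower for Des-/- over Des+/+ in the basal state, 0.0 and 20.8% after swimming, 1.37 and 11.0% for swim over basal in Des+/+ and 2.19 and 5.11% for swim over basal in Des-/-. With input also subtracted, likewise chosen after seeing the data, these pairs were 0.0 and 17.9%, 0.0 and 16.7%, 2.74 and 13.7%, and 3.65 and 10.9%. The floor still limited the swim over basal shares at 30 reads. The cause of these shifts was not tested. Limits on width and input changed no count by over 1.5 times.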
